A study of Mus musculus with 4 samples.

Results

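The 3 mature miRNAs described here are mmu-miR-146a-5p, mmu-miR-146b-5p and mmu-miR-155-5p (miR-146a-5p, miR-146b-5p and miR-155-5p from here on), which were chosen by name from the 1908 mature mouse miRNAs listed in the deposited miRNA tables. The choice was made with earlier results of these data known. All 3 had reads in each of the 4 libraries, among 645 miRNAs with at least 1 sense read of 18 nt or more. The libraries came from extracellular vesicles (EVs) released by 4T1 cells, from 4T1 cells, from EVs released by 4TO7 cells and from 4TO7 cells, with 1 library per group. Both lines derive from the same mouse mammary tumour: 4T1 forms metastases in distant organs, whereas 4TO7 is known for poor growth at distant sites. Per the labels, all cells were kept in DMEM with serum freed of EVs, and EVs were collected by differential centrifugation. Both lines are established cell lines with no further treatment named. With 1 library per group there was no replicate error, so every interval below is a 95% interval of counting error only, and each comparison is between libraries. PCR copies of a molecule were not told apart, so reads are not independent molecules, and whole-culture libraries cannot separate a change in every cell from a change in some of the cells.

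MiR-146a and miR-146b are transcribed in response to NF-kB signalling downstream of Toll-like and cytokine receptors. They share a seed and repress the adaptor Traf6 and the kinase Irak1, which gives negative feedback on the same pathway. MiR-155 is processed from the noncoding Mir155hg transcript, is also induced by NF-kB and AP-1 in activated immune cells, and represses among others Socs1 and the phosphatase Inpp5d. In carcinoma cells these miRNAs are studied as readouts and modulators of inflammatory signalling.

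The mature sequences (RefSeq, GRCm38.p6) show why the miR-146 pair has to be read with care. The seed, bases 2 to 8, is in capitals.
miR-146a-5p: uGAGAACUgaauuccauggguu
miR-146b-5p: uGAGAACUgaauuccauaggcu
miR-155-5p: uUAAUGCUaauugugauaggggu
The seed GAGAACU belonged to these 2 paralogs alone among the detected miRNAs that matched the RefSeq table, and the seed UAAUGCU to miR-155-5p alone. MiR-146a-5p and miR-146b-5p are both 22 nt long and differ at 2 bases, counted from 1 at the 5' end of miR-146a-5p, namely G18A and U21C. In the next pair the capitals mark those bases.
miR-146a-5p: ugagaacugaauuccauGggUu
miR-146b-5p: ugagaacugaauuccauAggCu

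The 3 hairpins lie on different chromosomes. In GRCm38, miR-146a-5p lies on the minus strand of chromosome 11 (chr11:43374435-43374456), where GENCODE M21 lists the hairpin gene Mir146 and no other gene around it. MiR-146b-5p lies on the plus strand of chromosome 19 (chr19:46342790-46342811), within a transcript of the protein-coding gene Mfsd13a but in none of its exons. MiR-155-5p lies on the plus strand of chromosome 16 (chr16:84714143-84714165), in exon 2 of the long noncoding RNA Mir155hg. The authors' own alignments used the older build mm9. In their cluster tables no cluster label named any of the 3 loci. No listed cluster held fewer than 1300 alignments in any library, whereas the highest read count of a member was 403.

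The libraries held 57962 sense miRNA alignments of 18 nt or more in 4T1 EV, 603186 in 4T1 cells, 51697 in 4TO7 EV and 177647 in 4TO7 cells. Levels in RPM, the usual reads-per-million scale, are read counts divided by these totals, and 3 reads, the limit that a count of 0 would allow, equal 51.8 RPM in 4T1 EV, 4.97 in 4T1 cells, 58.0 in 4TO7 EV and 16.9 in 4TO7 cells. Reads of exactly 18 nt made up 29.7% of these alignments in 4T1 EV, 1.08% in 4T1 cells, 17.8% in 4TO7 EV and 1.29% in 4TO7 cells. Of 6 epithelial marker miRNAs, mainly the miR-200 family, 5 were detected in 4T1 cells, at 6502 RPM in sum. In 4TO7 cells 2 were detected, at 236 RPM in sum, 41 of their 42 reads being miR-205-5p. Of 7 blood-cell marker miRNAs, 3 had reads in 4T1 EV (311 RPM in sum), 2 in 4T1 cells (13.3 RPM), 3 in 4TO7 EV (851 RPM) and 2 in 4TO7 cells (16.9 RPM). MiR-142-3p, miR-223-3p and miR-144-3p, which are typical of leukocytes or red cells, were at 0 in all 4 libraries. Others of the list had higher RPM in the EV libraries, on few reads: miR-486-5p was at 242 RPM in 4T1 EV, 11.6 in 4T1 cells, 599.6 in 4TO7 EV and 11.3 in 4TO7 cells. MiR-451a had 2 reads in 4T1 EV, 9 in 4TO7 EV and 0 in both cell libraries, and miR-142-5p had 2 in 4T1 EV, 0 in 4T1 cells, 4 in 4TO7 EV and 1 in 4TO7 cells. MiR-122-5p, the main liver miRNA, was at 2760 RPM in 4T1 EV, 1.66 in 4T1 cells, 21123 in 4TO7 EV and 5.63 in 4TO7 cells. The part of blood- or serum-derived RNA in the EV values of the 3 miRNAs was not tested.

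The aligner allowed 1 mismatch over the whole read, so a read of the miR-146 pair that ends before base 21 matches both paralogs. The tables showed this sharing directly. Among reads of 18 to 20 nt, 4T1 EV listed 3 reads under miR-146a-5p and the same number under miR-146b-5p, 4T1 cells listed 12 and 10, 4TO7 EV listed none under either, and 4TO7 cells listed 3 under each. In 4T1 EV and 4TO7 cells every such length class had equal counts, and in 4T1 cells 2 of 3 did, the exception being 19 nt with 8 and 6 reads. Reads of 21 nt or more span both differing bases, and these were not equal in any library.

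**Figure D1:**
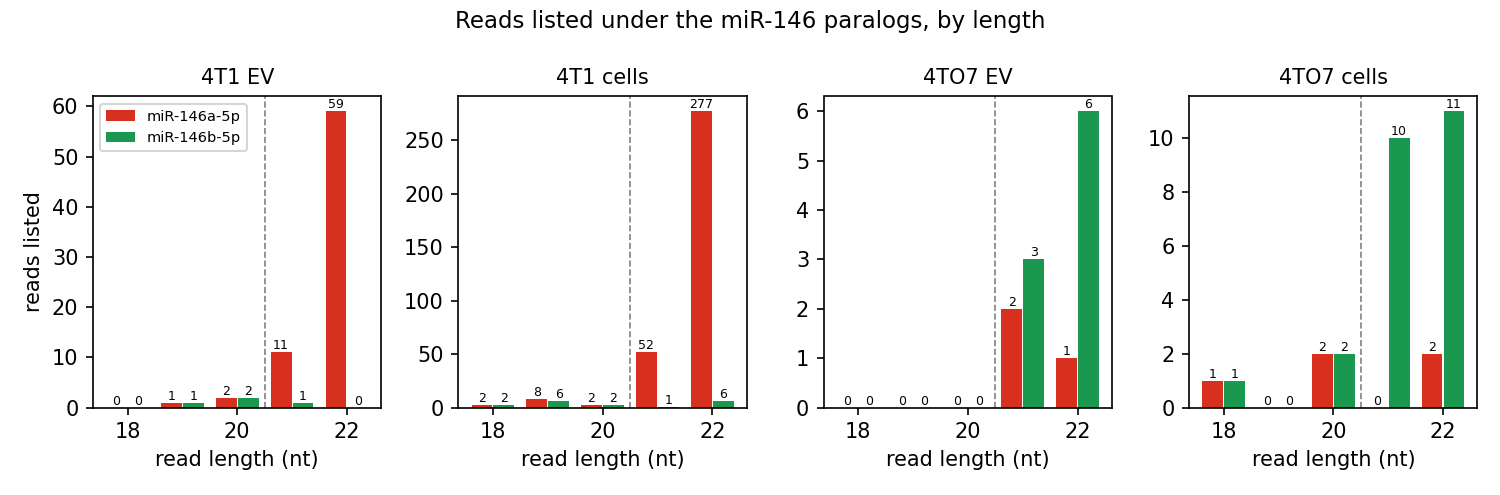
Number of sense reads listed under miR-146a-5p (red) and miR-146b-5p (green) by read length in nt, with a panel and a count axis for each library and the count above each bar. Right of the dashed line reads span both differing bases: there miR-146a-5p took 70 of 71 reads in 4T1 EV and 329 of 336 in 4T1 cells, whereas miR-146b-5p took 9 of 12 in 4TO7 EV and 21 of 23 in 4TO7 cells.

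The lines differed in their main miR-146 paralog, and the EV libraries leaned the same way as their cells, although in 4TO7 EV the 12 reads do not exclude an even split. In 4T1 EV, 70 of 71 reads of 21 nt or more were miR-146a-5p, a share of 98.6% (92.4% to 99.96%). In 4T1 cells it was 329 of 336, or 97.9% (95.8% to 99.2%). In 4TO7 EV it was 3 of 12, or 25.0% (5.49% to 57.2%). In 4TO7 cells it was 2 of 23, or 8.70% (1.07% to 28.0%). The intervals of the 4T1 libraries and the 4TO7 libraries do not overlap, while those of EVs and cells of the same line do. This share compares the paralogs with each other inside a library, so it does not depend on library size or on the choice of denominator. A sequencing error that turns 1 of the 2 differing bases into that of the other paralog would list a read under both names. Such a read would count under each name in these totals. The tables cannot show whether the 7 miR-146b-5p reads in 4T1 cells and the 2 miR-146a-5p reads in 4TO7 cells include such reads.

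MiR-146a-5p was the member with the widest range. It had 73 reads in 4T1 EV, or 1259 RPM (987 to 1584), and 341 reads in 4T1 cells, or 565 RPM (507 to 629). In 4TO7 EV it had 3 reads, or 58.0 RPM (12.0 to 170), and in 4TO7 cells 5 reads, or 28.1 RPM (9.14 to 65.7). Both 4T1 libraries were thus high and both 4TO7 libraries lay within a few reads of the detection limit. By rank it was number 66 of 311 detected miRNAs in 4T1 EV, 102 of 560 in 4T1 cells, 177 of 323 in 4TO7 EV and 261 of 441 in 4TO7 cells. In the order of levels, 4T1 EV over 4T1 cells and 4T1 cells over 4TO7 EV each had an interval of the ratio that excluded 1, whereas 4TO7 EV and 4TO7 cells did not differ beyond counting error. The step between 4T1 EV and 4T1 cells was lost with reads of 16 nt or more (ratio interval 0.821 to 1.38) and turned round per genome-aligned read (0.290 to 0.489). Of the 5 reads in 4TO7 cells, 3 were shorter than 21 nt and were also listed under miR-146b-5p.

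MiR-146b-5p was sparse everywhere and had the opposite order of lines. It had 4 reads in 4T1 EV, or 69.0 RPM (18.8 to 177), and 17 reads in 4T1 cells, or 28.2 RPM (16.4 to 45.1). It had 9 reads in 4TO7 EV, or 174 RPM (79.6 to 330.5), and 24 reads in 4TO7 cells, or 135 RPM (86.6 to 201). No pair of neighbours in its order of levels, from 4TO7 EV through 4TO7 cells and 4T1 EV down to 4T1 cells, differed beyond counting error. Of its reads in the 4T1 libraries, 3 of 4 in EV and 10 of 17 in cells were 18 to 20 nt long and were of the class shared with miR-146a-5p. Counting only reads of 21 nt or more, miR-146b-5p had 1 read in 4T1 EV, 7 in 4T1 cells, 9 in 4TO7 EV and 21 in 4TO7 cells.

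MiR-155-5p had its highest RPM in 4T1 cells. It had 19 reads in 4T1 EV, or 328 RPM (197 to 512), and 403 reads in 4T1 cells, or 668 RPM (604 to 737). It had 1 read in 4TO7 EV, or 19.3 RPM (0.490 to 108), and 26 reads in 4TO7 cells, or 146.4 RPM (95.6 to 214). Its order of levels was 4T1 cells, 4T1 EV, 4TO7 cells and 4TO7 EV, and each neighbouring pair had an interval that excluded 1. The step between the 4T1 libraries was not kept with reads of 21 nt or more, where 4T1 EV had 665 RPM against 699 in 4T1 cells (ratio interval 0.558 to 1.52), or with median-of-ratios scaling (0.396 to 1.05). Per genome-aligned read, 4T1 EV and 4TO7 cells lay close together at 2.49 and 2.31 RPM. MiR-155-5p ranked 104 of 311 in 4T1 EV, 92 of 560 in 4T1 cells, 242 of 323 in 4TO7 EV and 159 of 441 in 4TO7 cells.

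**Figure D2:**
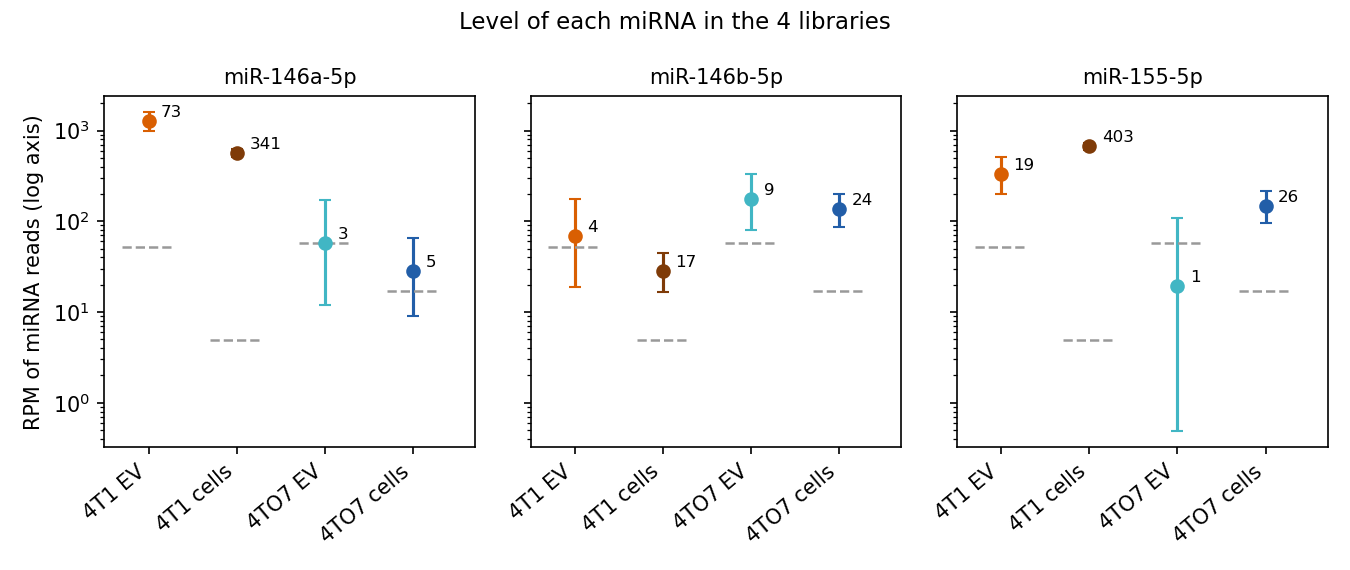
RPM of miRNA reads on a log axis for each member in 4T1 EV, 4T1 cells, 4TO7 EV and 4TO7 cells, 1 library each. Points carry the read count, bars are exact 95% Poisson intervals and dashed lines mark 3 reads; miR-146a-5p stands at 1259 and 565 RPM in the 4T1 libraries against 58.0 and 28.1 RPM in the 4TO7 libraries, and miR-146b-5p has the reverse order of lines.

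Ratios between libraries were formed from RPM. A miRNA was compared where 1 or both libraries held 50 of its reads, and it was called higher or lower where the whole exact interval lay beyond 2-fold. The comparison of 4T1 cells with 4TO7 cells asks how the lines differ inside the cell. MiR-146a-5p was 20.1-fold higher in 4T1 cells (8.52 to 62.3), a log2 ratio of 4.19, and took position 10 from the top among 208 compared miRNAs. MiR-155-5p was 4.56-fold higher (3.07 to 7.07), a log2 ratio of 2.16. Both compared members were called higher, where 13.5% of the 208 miRNAs were called higher, 5.29% lower and 18.8% either way. Both reached the minimum only in 4T1 cells, the larger library and the one where they were higher. Their calls therefore cannot be weighed against those shares. MiR-146b-5p had under 50 reads in both libraries and was not called. Its ratio was 0.209 (0.105 to 0.405), a log2 ratio of -2.25, and the interval lay wholly below 0.5. The median log2 ratio of all compared miRNAs was 0.17. With reads of 21 nt or more the log2 ratios were 5.35 for miR-146a-5p, -3.22 for miR-146b-5p and 2.15 for miR-155-5p. Per genome-aligned read, miR-146a-5p and miR-155-5p had log2 ratios of 5.70 and 3.67, and miR-146b-5p had -0.75 with an interval of the ratio (0.298 to 1.15) that included 1.

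With the 2 paralogs taken as 1 value and shared reads counted once, the miR-146 pair amounted to 348 in 4T1 cells against 26 in 4TO7 cells, which is 577 and 146.4 RPM. The pair was 3.94-fold higher in 4T1 cells (2.64 to 6.12) and was called higher. This is a smaller ratio than the 20.1-fold of miR-146a-5p alone, as the 4TO7 reads of the pair were mostly miR-146b-5p. MiR-155-5p had 403 reads beside those 348 in 4T1 cells, or 53.7% of the sum (50% to 57.3%), and 26 reads beside 26 in 4TO7 cells, or 50% (35.8% to 64.2%). Between the cell libraries, the balance of miR-155 to the miR-146 pair therefore did not differ beyond counting error.

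The EV libraries were compared in the same way. MiR-146a-5p was 21.7-fold higher in 4T1 EV than in 4TO7 EV (7.14 to 108), with a log2 ratio of 4.23 that took position 5 from the top of 82 compared miRNAs. It was the member with enough reads to be compared, and it was called higher, where 24.4% of the 82 were called higher, 17.1% lower and 41.5% either way. It reached the minimum only in 4T1 EV, where it was higher, so its call cannot be weighed against those shares. MiR-155-5p had 19 reads against 1, a ratio of 16.9 with an interval of 2.69 to 704, and was under the minimum. MiR-146b-5p had 4 reads against 9, a ratio of 0.396 (0.0892 to 1.42), which includes 1. The miR-146 pair as 1 value, with 74 reads in 4T1 EV against 12 in 4TO7 EV, was 5.50-fold higher in 4T1 EV (2.97 to 11.1).

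The comparison of EVs with their cells of origin asks whether a miRNA takes a larger or smaller part of vesicle miRNA than of cellular miRNA. In 4T1, 2 members were compared and neither was called, where 10.6% of 208 miRNAs were called higher, 29.8% lower and 40.4% either way. MiR-146a-5p was 2.23-fold higher in 4T1 EV than in 4T1 cells (1.71 to 2.88), a log2 ratio of 1.16. MiR-155-5p had a ratio of 0.491 (0.292 to 0.776), a log2 ratio of -0.99. The compared miRNAs had a median of -1.06, so miR-146a-5p lay 2.23 above it and miR-155-5p 0.0702 above it on the log2 scale. MiR-146b-5p, with 4 reads in EVs and 17 in cells, had a ratio of 2.45 (0.599 to 7.51).

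These EV to cell ratios rested on the denominator, since miRNA reads were a smaller part of the EV libraries. Per genome-aligned read, miR-146a-5p stood at 9.57 RPM of genome-aligned reads in 4T1 EV against 25.2 in 4T1 cells, and its log2 ratio turned to -1.39, called lower. MiR-155-5p stood at 2.49 RPM of genome-aligned reads in 4T1 EV against 29.8 in 4T1 cells, with a log2 ratio of -3.55, also called lower. A change of denominator moves every log2 ratio of a comparison by the same amount. The median of all compared miRNAs thus moved by -2.55 as well, and the distance of a member from it could not change. Read length mattered as well. With reads of 21 nt or more in numerator and denominator, miR-146a-5p had a log2 ratio of 2.10 and was called higher (3.25-fold to 5.54-fold), and miR-155-5p had -0.03. With reads of 16 nt or more they had 0.10 and -2.04, and miR-155-5p was called lower. Median-of-ratios scaling gave miR-146a-5p 1.60, called higher.

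Set against each other, which needs no denominator, miR-155 took a smaller part of the miR-155 and miR-146 reads in 4T1 EV than in 4T1 cells. In 4T1 EV 19 of 93 reads of the 3 members, shared reads of 18 to 20 nt counted once, were miR-155-5p, or 20.4% (12.8% to 30.1%). In 4T1 cells it was 403 of 751, or 53.7%, and the intervals do not overlap. In 4TO7 EV it was 1 of 13 reads, or 7.69% (0.195% to 36.0%), and in 4TO7 cells 26 of 52, or 50% (35.8% to 64.2%), so the same direction was seen there with overlapping intervals.

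In 4TO7 no member had 50 reads in either library, and none was compared, where 16.8% of 131 miRNAs were called higher, 38.2% lower and 55.0% either way. The ratio of 4TO7 EV to 4TO7 cells was 2.06 for miR-146a-5p (0.320 to 10.6), 1.29 for miR-146b-5p (0.527 to 2.87) and 0.132 for miR-155-5p (0.00322 to 0.805). The interval for miR-155-5p, which rests on 1 EV read, excluded 1 and those for the miR-146 paralogs did not. It included 1 with reads of 21 nt or more (0.00432 to 1.08), with median-of-ratios scaling (0.00425 to 1.06) and after thinning (0.00317 to 1.11). The difference between the EV to cell log2 ratios of the lines, 4T1 minus 4TO7, was 0.03 for miR-146a-5p (-1.93 to 2.00), 1.01 for miR-146b-5p (-0.84 to 2.85) and 1.37 for miR-155-5p (-1.09 to 3.83). None lay wholly beyond 2-fold, where 17.8% of 129 miRNAs did, and the wide intervals do not show that the lines were alike.

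**Figure D3:**
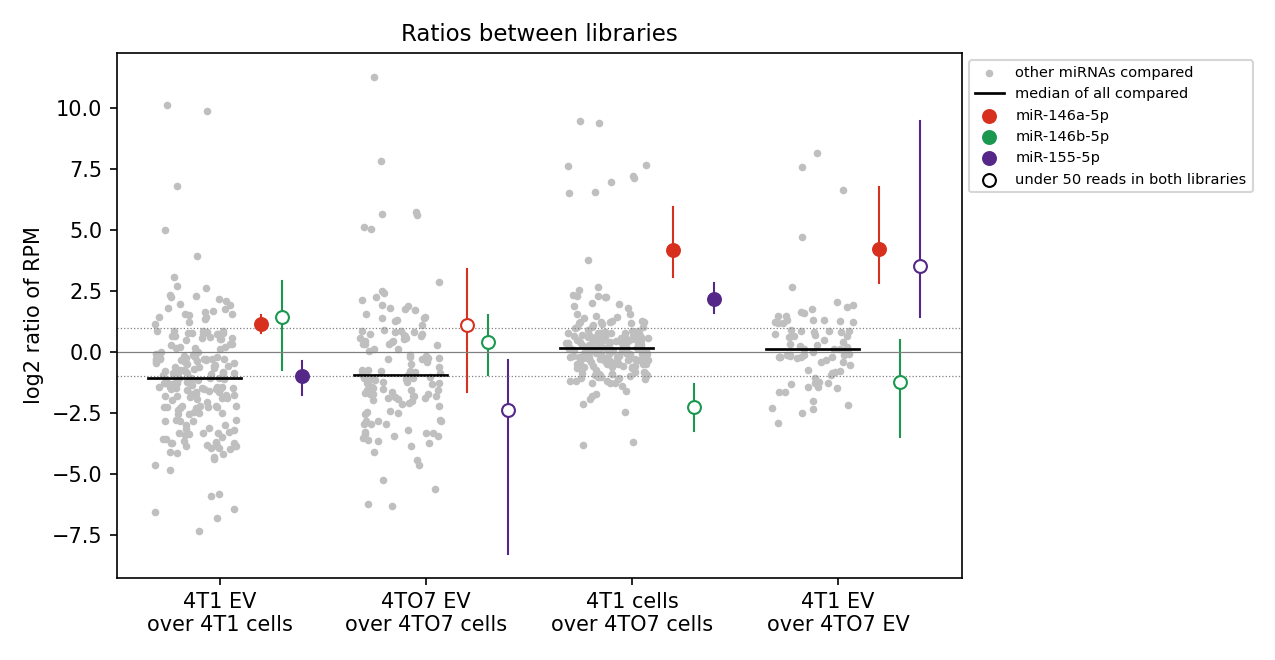
Log2 ratio of RPM in the 4 comparisons: grey points are the other compared miRNAs, black lines the median of all compared, coloured points the members with exact 95% intervals, and open points members with under 50 reads in both libraries. Dotted lines mark 2-fold; miR-146a-5p and miR-155-5p lie at 4.19 and 2.16 between the cell libraries, and miR-146a-5p lies at 4.23 between the EV libraries.

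Nearly all listed reads of the members began at the annotated 5' end, in EVs as in cells. Reads that begin before that base could not align over their whole length to the mature sequence, so such forms are not seen. Every read of miR-146a-5p and miR-146b-5p started at the annotated first base, as did 397 of 403 miR-155-5p reads in 4T1 cells and 18 of 19 in 4T1 EV. The exception in 4T1 EV was an 18 nt read that started at base 6. No member had an antisense read of 18 nt or more. MiR-146a-5p reads of the annotated 22 nt were 59 of 73 in 4T1 EV, or 80.8% (69.9% to 89.1%), and 277 of 341 in 4T1 cells, or 81.2% (76.7% to 85.2%). Over all alignments whose miRNA matched the RefSeq table, reads of exactly the annotated start and length made up 34.9% in 4T1 EV and 70.7% in 4T1 cells. Such full-length shares were lower in EVs for 82 of 99 miRNAs with 15 or more reads in both 4T1 libraries, with a median difference of -26.5 percentage points, against -0.41 for miR-146a-5p.

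MiR-155-5p was more often full-length in 4T1 EV than in 4T1 cells. Reads of the annotated 23 nt were 17 of 19 in 4T1 EV, or 89.5% (66.9% to 98.7%), against 176 of 403 in 4T1 cells, or 43.7% (38.8% to 48.7%). The cellular reads ended at several places, with 88 reads of 21 nt and 112 of 22 nt starting at the first base, whereas 4T1 EV had none of 21 nt and 1 of 22 nt. Of the 99 miRNAs, where most shares were lower in EVs, this difference of 45.8 percentage points took position 2 from the top in the signed order of EV minus cells. In 4TO7 cells 13 of 26 reads were full-length, or 50% (29.9% to 70.1%), and 4TO7 EV had 1 read, 22 nt long and beginning at base 2. Reads extending past the annotated 3' end could not align over their whole length to the mature sequence, so longer forms are missing from all these shares.

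**Figure D4:**
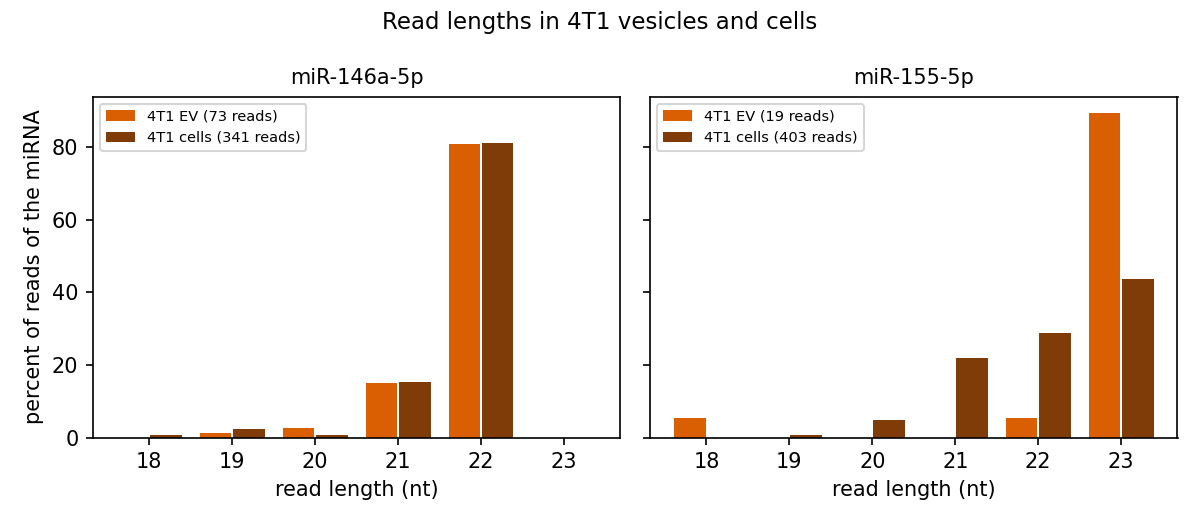
Percent of the sense reads of miR-146a-5p (left) and miR-155-5p (right) at each read length in nt, in 4T1 EV (orange) and 4T1 cells (brown). The bars of miR-146a-5p nearly coincide at 22 nt (80.8% and 81.2%), whereas miR-155-5p has 89.5% of its EV reads and 43.7% of its cell reads at 23 nt.

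The other arms of the hairpins were close to absent. MiR-146a-3p was at 0 in all 4 libraries. MiR-146b-3p was found in 4T1 cells (3 reads) and 4TO7 cells (4 reads) and was at 0 in both EV libraries. MiR-155-3p had 3 reads in 4T1 cells and 0 in the other libraries. Against 17 and 24 reads of miR-146b-5p in 4T1 and 4TO7 cells, the miR-146b-3p counts were the least uneven of the 3 hairpins. No ratio is given for these counts.

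Other miRNAs linked to NF-kB, either as its targets or as repressors of the pathway, did not share 1 direction. Of 15 listed, 9 were compared between the cell libraries. MiR-181b-5p, a repressor of importin alpha 3, was higher in 4T1 cells (4.81-fold, 3.55 to 6.68), miR-221-3p was lower (ratio 0.440, 0.408 to 0.475) and 7 were neither. That is 1 of 9 in each direction, where 13.5% of all compared miRNAs were called higher and 5.29% lower, and the list's median log2 ratio was 0.32 against 0.17 over all compared. Between the EV libraries, miR-21a-5p was higher in 4T1 EV (2.51-fold, 2.31 to 2.73) and the other 5 of 6 compared were neither, where 24.4% of all compared miRNAs were called higher and 17.1% lower. The list's median log2 ratio was 0.03 there, against 0.14. MiR-21a-5p, which is induced in many inflamed tissues and tumours, had a ratio of 0.975 between the cell libraries (0.961 to 0.991). MiR-223-3p was at 0 throughout.

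Between EVs and cells, 2 of 9 compared NF-kB-linked miRNAs were higher in 4T1 EV, 4 were lower and 3 neither, where 10.6% of all compared were higher and 29.8% lower. The list had a median log2 ratio of -1.06, which to 2 decimals is that of all compared. In 4TO7, 2 of 7 were higher, 4 lower and 1 neither, where 16.8% of all compared were higher and 38.2% lower, and the median was -1.74 against -0.96. MiR-125b-5p, which represses TNF mRNA, was higher in EVs in 4T1 (3.12-fold, 3.02 to 3.22) and in 4TO7 (2.46-fold, 2.34 to 2.59). MiR-9-5p, a repressor of Nfkb1, was lower in EVs in 4T1 (ratio 0.141, 0.116 to 0.170) and in 4TO7 (0.181, 0.149 to 0.219). MiR-21a-5p was lower in EVs in 4T1 (ratio 0.334, 0.320 to 0.348) and in 4TO7 (0.130, 0.121 to 0.139), and miR-16-5p and miR-221-3p were lower in EVs of both lines too. MiR-15a-5p was higher in 4T1 EV (4.88-fold), miR-181b-5p was higher in 4TO7 EV (5.70-fold), and let-7i-5p and miR-222-3p were called in none of the comparisons they entered. These EV to cell ratios rest on the denominator too. Per genome-aligned read every 4T1 log2 ratio moved by -2.55, so those of miR-125b-5p (1.64) and miR-15a-5p (2.30) turned negative. Of all 208 compared in 4T1, 5 were then called higher and 178 lower. In 4TO7 13 of 131 were called higher and 68 lower.

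The miRNAs with the profile most like each member over the 4 libraries were found by Euclidean distance between centred log2 RPM values, among 208 miRNAs with 50 or more reads in a library. For miR-146a-5p they were miR-467e-3p, miR-467a-3p and miR-669c-5p, at distances of 1.81, 1.89 and 1.92. For miR-155-5p they were miR-30e-5p at 0.92 and the pair miR-466b-5p and miR-466o-5p, which had equal counts, at 1.01. For miR-146b-5p they were let-7b-5p, let-7c-5p and miR-148a-3p, at 1.03, 1.09 and 1.10. The nearest miRNA to miR-146a-5p was 224 RPM in 4T1 EV, 156 in 4T1 cells, 19.3 in 4TO7 EV and 28.1 in 4TO7 cells. These likenesses rest on 4 values each and on few reads in the 4TO7 libraries, and they are given as descriptions.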

How the data were processed

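Small RNA was sequenced from EVs and cells of 4T1 and 4TO7. Per the labels' protocols, ribosomal RNA was depleted, miRNA-sized RNA was cut from a gel, and a NEBNext kit was used to build the libraries. Per the submitters' processing notes, cutadapt, Bowtie and bedtools were used with mm9; versions are not given in the sources used here. The deposited alignment logs show that reads were aligned to mature miRNAs with 1 mismatch and up to 10 matches per read, so a read counts under each miRNA it matches. Values in the deposited miRNA tables are raw counts, given by the authors for each miRNA, strand, start and length.

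Sense reads of 18 nt or more were summed per miRNA and divided by their total (RPM). Ratios have exact conditional binomial (Clopper-Pearson) 95% intervals, and log2 ratios have 0.5 reads added. Levels have exact Poisson intervals and shares Clopper-Pearson intervals. The line difference uses Poisson variances. Python 3.11.15, scipy 1.17.1 and edgeR 4.0.16 (TMM factors) were used. The members and lists were chosen with earlier results of these data known. The text names the members, their other arms, the listed NF-kB-linked miRNAs with 50 or more reads in a library and the 3 nearest profiles per member. Blood-cell markers miR-142a and miR-486a were matched to their listed names miR-142 and miR-486. Sequences and GRCm38.p6 positions came from RefSeq, and 3 of 3 members matched.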

Additional observations from a re-analysis of the deposited data

How the results depend on the processing

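Between lines, miR-146a-5p stayed higher in 4T1 cells and in 4T1 EV, and miR-155-5p stayed higher in 4T1 cells. This held under each length minimum, scaling, thinning, start rule and paralog rule that was run. Adding 5 reads gave log2 ratios of 3.35, 3.12 and 1.95 in that order. The added reads enter no interval, so that setting could not change a call. Of 104 alternatives for member ratios, 94 kept the call of a compared member or stayed inside the main counting interval of a member not compared. Direction was checked for called members only. For example, miR-146b-5p in 4TO7 EV against cells went from 0.41 to -0.24 per genome-aligned read and is among the 94. None of the 18 for the line difference brought a call beyond 2-fold, but its sign was not kept in all. Per genome-aligned read it was -1.86 for miR-146a-5p, -0.89 for miR-146b-5p and -0.53 for miR-155-5p. In 4T1 EV against cells, miR-146a-5p had log2 ratios of 2.10 with reads of 21 nt or more, 1.60 with median-of-ratios scaling and -1.39 per genome-aligned read, and miR-155-5p had -2.04 with reads of 16 nt or more and -3.55 per genome-aligned read, each past 2-fold. MiR-146b-5p had -1.13 there per genome-aligned read. Between cells it had -0.75 per genome-aligned read, -3.29 after thinning, and 1.95 when merged with miR-146a-5p, or 2.41 between EVs. Among reads of 22 nt or more the miR-146a share in 4T1 EV was 100%. The causes were not tested, except that merging adds the miR-146a reads. Over all miRNAs, the 84 calls among 208 compared in 4T1 EV against cells were 133 of 221 with reads of 16 nt or more, 183 of 208 per genome-aligned read and 52 of 98 after thinning, where fewer were compared. The 39 of 208 between cells were 136 of 208 per genome-aligned read, and the 34 of 82 between EVs were 21 of 64 with reads of 21 nt or more. In the order 4T1 EV against cells, 4TO7 EV against cells, cells and EVs, genome-aligned reads moved the median log2 ratio by -2.55, -0.66, 1.503 and -0.40, median-of-ratios scaling by 0.44, 0.40, -0.16 and -0.12, and TMM by 0.08, 0.31, 0.05 and -0.18. Of the called miRNAs, those called higher made up 26.2%, 30.6%, 71.8% and 58.8%, against 2.73%, 16.05%, 98.5% and 37.9% per genome-aligned read and 47.0%, 41.9%, 60.5% and 50% with median-of-ratios scaling. TMM gave 42.9% between EVs. A minimum of 10 reads gave 36.1%, 40.7%, 56.9% and 55.1%, and no minimum gave 38.6%, 46%, 52.7% and 55.1%. The background shares called higher and lower thus depend on the 50-read minimum too. No paired analysis was possible because there was 1 library per group. Depth limits miR-146b-5p throughout and all members in 4TO7 EV.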

Other observations

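Reads of 10 to 17 nt, which were left out of all values above, were many for the miR-146 pair in cells and few for miR-155-5p. Under miR-146a-5p there were 4 such sense reads in 4T1 EV, 171 in 4T1 cells, 2 in 4TO7 EV and 105 in 4TO7 cells. Under miR-155-5p there were 0 in 4T1 EV, 6 in 4T1 cells, 0 in 4TO7 EV and 7 in 4TO7 cells. Under miR-146b-5p there were 5, 175, 1 and 103 in the same order, and 19 of 23 classes of start and length in 4T1 cells held equal counts for both paralogs. The number in 4TO7 cells is larger than the 24 reads of 18 nt or more listed there under miR-146b-5p. Which RNAs these short reads came from was not tested.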
